A study of Homo sapiens with 6 samples.

Results

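The 10 integrin genes described here were followed in SKOV3ip1 cells after transfection with BARD1 siRNA or Control siRNA. SKOV3ip1 is a subline of SKOV3, a human cell line from an ovarian adenocarcinoma. The genes are the alpha subunits ITGA2, ITGA3, ITGA5, ITGA6 and ITGAV and the beta subunits ITGB1, ITGB3, ITGB4, ITGB5 and ITGB8. They were chosen by gene name, 10 of the 58735 genes in the count table, and all 10 passed the filter on low counts. The BARD1 siRNA group and the Control siRNA group held 3 libraries each, from cells kept for 48 h after lipid transfection. The labels give both groups the genotype WT and name the material as cells in the titles but as tumors in the source field. The protocols describe cultured cells of this 1 line. What the siRNAs target within BARD1 is not stated in the labels, and a single control siRNA treatment is the only comparator. The design asks how loss of BARD1, the RING-domain partner of BRCA1, bears on tumour angiogenesis pathways.

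Integrins are cell surface receptors made of an alpha and a beta chain that together bind extracellular matrix outside the cell and, through talin and kindlin, actin inside it. The alpha chain largely sets which ligand is bound: ITGA2 pairs with ITGB1 to bind collagen, ITGA3 and ITGA6 pair with ITGB1 to bind laminins, and ITGA5 pairs with ITGB1 to bind fibronectin. ITGAV joins ITGB1, ITGB3, ITGB5 or ITGB8 to bind proteins with an RGD sequence, and ITGA6 also joins ITGB4 in hemidesmosomes, which anchor epithelial cells to laminin through keratin. In ovarian carcinoma, integrins are known for attaching tumour cells to the mesothelial lining of the peritoneum. In endothelial cells, the receptors made of ITGAV with ITGB3 and of ITGA5 with ITGB1 are known for a part in vessel growth.

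All 5 alpha subunits among the 10 members rose in BARD1 siRNA cells, and the beta subunits among them went in different directions. ITGA5 rose most, 2.78-fold, followed among the alpha chains by ITGA2 at 1.75-fold, ITGA3 at 1.37-fold, ITGA6 at 1.21-fold and ITGAV at 1.19-fold. Of the beta chains, ITGB3 rose 1.91-fold, ITGB8 and ITGB4 fell 1.94-fold and 1.70-fold, and ITGB1 and ITGB5 did not pass the test. In total 6 of the 10 subunits were called higher and 2 lower. Among all 15271 tested genes, 22.0% were called higher and 20.3% lower, 42.3% together. A call is an adjusted p under 0.05 in edgeR's quasi-likelihood test, with Benjamini-Hochberg adjustment over all tested genes. The 3 libraries of one group lay above the 3 of the other for 8 of the 10 subunits, and for 50.4% of all tested genes. With upper-quartile scaling the subunits split into 6 higher and 4 lower. Over all calls, higher genes then made up 41.5% instead of 51.9%. The median log2 fold change was 0.46 over the 5 alpha subunits, −0.08 over the 5 beta subunits and −0.01 over all tested genes.

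**Figure D1:**
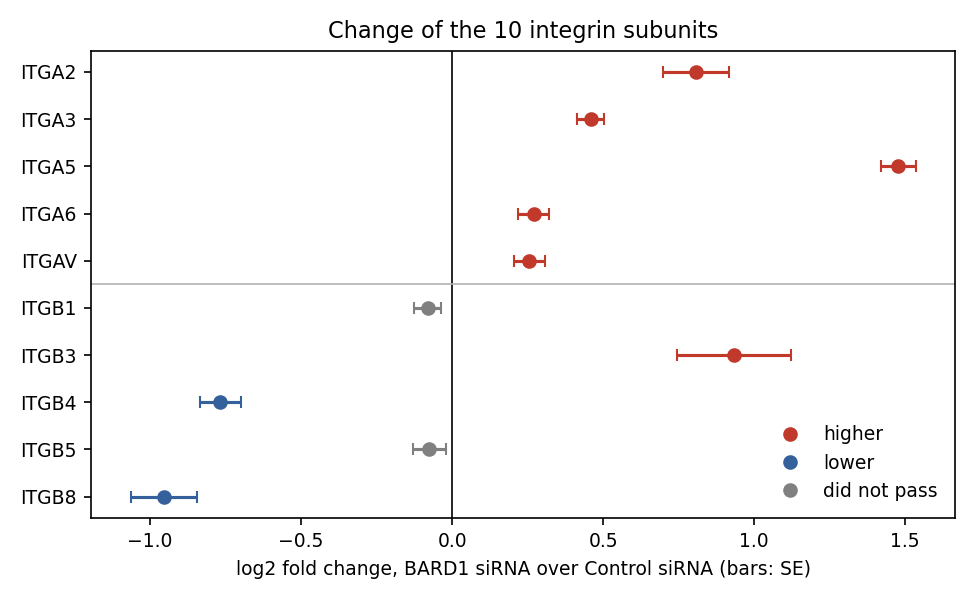
Log2 fold change of each subunit, BARD1 siRNA over Control siRNA, from the edgeR fit, with bars of 1 standard error (SE), alpha subunits above the grey line and beta subunits below it. The 5 alpha points lie between 0.26 and 1.48, while the beta points run from −0.95 for ITGB8 to 0.93 for ITGB3.

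Sequences upstream of the transcription start are shown for 4 members because they span the range of change: ITGA5 and ITGA2, the alpha genes that rose most, ITGB1, which did not pass, and ITGB8, which fell most. They are RefSeq promoter windows on GRCh38.p14, given 5′ to 3′ on the strand of the gene and cut where the first annotated exon of GENCODE release 29 begins. Capitals mark GC boxes (GGGCGG) and matches to a loose NF-κB pattern (GGGNNNNNCC), searched on both strands. Some matches overlap each other. The ITGB1 window lies inside the gene model of the count table, which reaches to 33005792, so annotated starts of ITGB1 also lie further upstream.
ITGA5, chr12:54419461-54419516, minus strand: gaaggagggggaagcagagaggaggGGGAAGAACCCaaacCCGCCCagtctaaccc
ITGA2, chr5:52989102-52989325, plus strand: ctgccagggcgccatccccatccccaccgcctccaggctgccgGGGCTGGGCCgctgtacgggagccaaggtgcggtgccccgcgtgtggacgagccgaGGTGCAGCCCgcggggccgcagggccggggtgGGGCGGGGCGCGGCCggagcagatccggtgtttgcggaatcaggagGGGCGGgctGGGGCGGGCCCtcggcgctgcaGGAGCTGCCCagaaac
ITGB1, chr10:32958233-32958480, minus strand: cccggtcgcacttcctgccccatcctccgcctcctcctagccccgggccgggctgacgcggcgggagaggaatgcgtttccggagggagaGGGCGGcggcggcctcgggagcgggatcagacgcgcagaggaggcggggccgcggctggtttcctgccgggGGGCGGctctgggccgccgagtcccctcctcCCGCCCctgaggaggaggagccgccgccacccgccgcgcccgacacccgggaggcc
ITGB8, chr7:20330650-20330701, plus strand: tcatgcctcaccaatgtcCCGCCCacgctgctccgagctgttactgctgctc

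Promoter windows were matched for 7 members, namely ITGA2, ITGA5, ITGA6, ITGAV, ITGB1, ITGB5 and ITGB8. In the first 250 bases of each window, a GC box was found in 5 of the 7, against 42.3% of 27305 promoters in the table. These bases were searched without the cut used above. The first annotated exon began after 56 of them for ITGA5, 224 for ITGA2, 248 for ITGB1 and 52 for ITGB8. The NF-κB pattern was found in 4 of the 7, against 53.7% of all promoters, so it is common in windows of this length. ITGA5 held 7 matches to it, with only those at bases 26 and 27 before the exon. ITGA2 held 6, in part overlapping. The matches of ITGB1 and ITGB8 to this pattern extend past the start of the exon. The windows of ITGA6 and ITGAV, which also rose, held none of either motif. The AP-1 site TGANTCA occurred in 6.60% of all promoters and the cyclic AMP response element TGACGTCA in 1.77%, and neither occurred in the 7 windows. A match is a run of letters and does not show that a factor binds there.

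ITGA5, the alpha chain of the main fibronectin receptor (chromosome 12, 54395261 to 54419460, minus strand, in the GRCh38 coordinates of the count table), had the largest change of the 10 members. Its normalised level was 204, 215 and 207 CPM (counts scaled to a library of 1000000) in the BARD1 siRNA libraries, against 77.4, 75.3 and 72.4 CPM in the Control siRNA libraries. The lowest BARD1 siRNA library was therefore far above the highest Control siRNA library. The mean was 209 ± 5.73 CPM with BARD1 siRNA and 75.0 ± 2.52 CPM with Control siRNA (SD, n = 3 each). The log2 fold change was 1.48 (SE 0.06, edgeR adjusted p = 2.67e-28), and 3.25% of all tested genes had a larger change in either direction. These are bulk libraries, so a change in RNA per cell and a change in the share of cells that express the gene cannot be told apart.

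ITGA2, the alpha chain of a collagen receptor (chromosome 5, 52989326 to 53094779, plus strand), was among the scarcer subunits. It had 26.0, 34.7 and 29.2 CPM with BARD1 siRNA, against 16.8, 17.3 and 17.3 CPM with Control siRNA. The BARD1 siRNA libraries were spread more widely than the Control siRNA libraries, and the groups did not overlap. Its log2 fold change was 0.81 (SE 0.11, edgeR adjusted p = 1.61e-08).

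ITGA3, whose product with ITGB1 binds laminins (chromosome 17, 50055968 to 50090481, plus strand), was the alpha chain with the highest level. Its values were 2093, 2081 and 2082 CPM with BARD1 siRNA, against 1539, 1569 and 1443 CPM with Control siRNA. All BARD1 siRNA libraries were above all Control siRNA libraries. The log2 fold change of 0.46 (SE 0.04, edgeR adjusted p = 9e-13) was modest, and 29.7% of tested genes changed by more. In CPM it was the largest gain of any member, with a mean of 2085 ± 6.70 CPM in BARD1 siRNA cells and 1517 ± 66.1 CPM in Control siRNA cells (SD, n = 3 each).

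ITGA6 and ITGAV rose slightly. ITGA6, the laminin-binding chain shared by ITGB1 and ITGB4 (chromosome 2, 172427354 to 172506282, plus strand), had 313, 308 and 308 CPM with BARD1 siRNA, against 266, 242 and 262 CPM with Control siRNA. Its log2 fold change was 0.27 (SE 0.05, edgeR adjusted p = 1.17e-05). ITGAV, the common chain of the RGD receptors (chromosome 2, 186590065 to 186680901, plus strand), had 235, 253 and 232 CPM with BARD1 siRNA, against 205, 198 and 199 CPM with Control siRNA. The groups did not overlap for either gene. For ITGAV the log2 fold change was 0.26 (SE 0.05, edgeR adjusted p = 4.93e-05). Changes of at least these sizes were common, since 50.8% of tested genes changed by more than ITGA6 and 52.7% by more than ITGAV. ITGA6 encodes splice forms with different cytoplasmic tails, and counts per gene do not separate them.

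ITGB1, the beta chain that most alpha subunits share (chromosome 10, 32900319 to 33005792, minus strand), was the most abundant beta chain by far. It had 1606, 1558 and 1517 CPM with BARD1 siRNA, against 1649, 1585 and 1716 CPM with Control siRNA. The groups overlapped: the highest BARD1 siRNA library lay above the lowest Control siRNA library. Its log2 fold change was −0.08 (SE 0.04, edgeR adjusted p = 0.143). The call depended on the setting. Without Control siRNA replicate 2 the log2 fold change was −0.11 (edgeR adjusted p = 0.0337), with upper-quartile scaling −0.15 (edgeR adjusted p = 0.00553) and with library size alone −0.14 (edgeR adjusted p = 0.00676). In these 3 settings it passed as lower, and over all settings run the adjusted p was between 0.00553 and 0.375.

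ITGB5, which pairs with ITGAV to bind vitronectin (chromosome 3, 124761948 to 124901418, minus strand), showed the same small difference. Its values were 186, 179 and 167 CPM with BARD1 siRNA, against 194, 188 and 179 CPM with Control siRNA, and the groups overlapped. The log2 fold change was −0.08 (SE 0.05, edgeR adjusted p = 0.280). It also passed as lower with upper-quartile scaling (−0.14, edgeR adjusted p = 0.0315) and with library size alone (−0.14, edgeR adjusted p = 0.0370). A p that misses the threshold does not show that ITGB1 and ITGB5 were unaffected.

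ITGB3, the partner of ITGAV known from growing vessels and platelets (chromosome 17, 47253846 to 47311816, plus strand), was the only beta chain called higher. It was scarce, with 180, 139 and 147 counts in the BARD1 siRNA libraries, against 93, 67 and 95 counts in the Control siRNA libraries. In CPM these were 11.1, 8.22 and 8.43 with BARD1 siRNA, against 5.29, 3.93 and 5.26 with Control siRNA, so the groups did not overlap. The log2 fold change was 0.93 (SE 0.19, edgeR adjusted p = 4.97e-05), with the largest SE of the 10 members. ITGB3 shares 2266 exon bases on its own strand with another protein-coding gene model, AC068234.1, which has 0 counts in every library. The labels do not say how reads in such shared bases were counted, and the level of ITGB3 may be understated in both groups.

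ITGB8, a partner of ITGAV that is known for activating latent TGF-beta (chromosome 7, 20330702 to 20415754, plus strand), fell most. It had 14.6, 15.4 and 13.9 CPM with BARD1 siRNA, against 28.3, 26.6 and 30.2 CPM with Control siRNA. Every BARD1 siRNA library was well below every Control siRNA library. The mean was 14.6 ± 0.747 CPM with BARD1 siRNA and 28.3 ± 1.81 CPM with Control siRNA (SD, n = 3 each), a log2 fold change of −0.95 (SE 0.11, edgeR adjusted p = 1.91e-10).

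ITGB4, the beta chain of the hemidesmosome with a long cytoplasmic tail that binds plectin (chromosome 17, 75721328 to 75757818, plus strand), fell as well. Its values were 60.8, 60.7 and 55.8 CPM with BARD1 siRNA, against 105, 106 and 91.0 CPM with Control siRNA, with no overlap. The log2 fold change was −0.77 (SE 0.07, edgeR adjusted p = 8.5e-14). ITGB4 overlaps GALK1 on the other strand with no exon base in common, and GALK1 itself did not pass, with a log2 fold change of −0.11 (edgeR adjusted p = 0.305). Apart from GALK1, genes overlapping a member had at most 4.58% of its mean count, and that largest value belonged to THCAT158 within ITGB3.

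**Figure D2:**
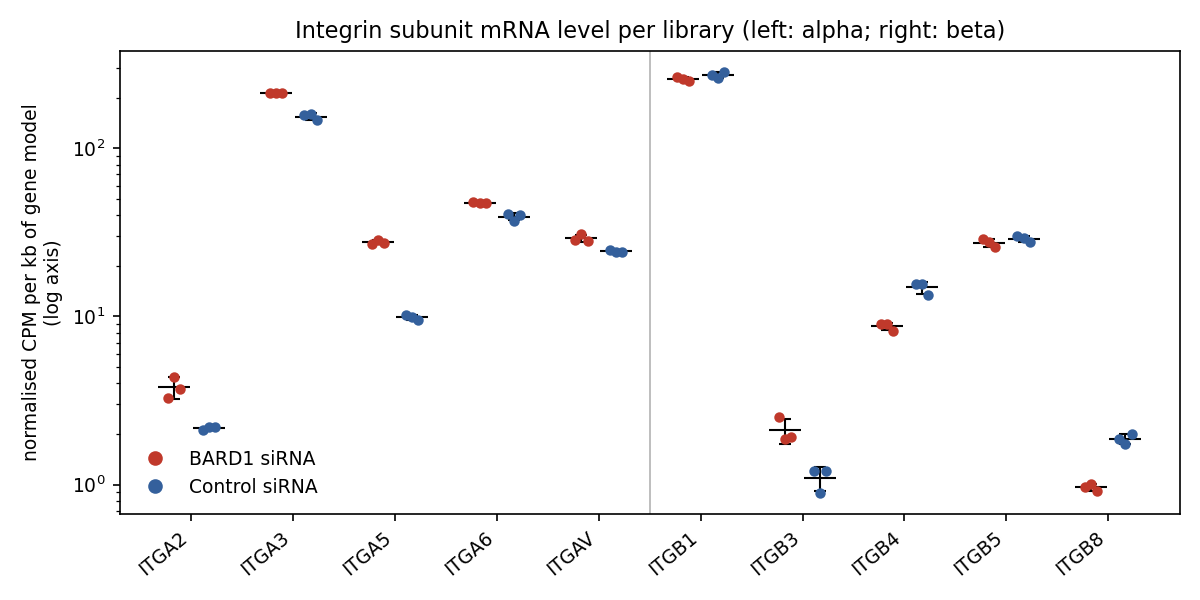
Level of each subunit in each library, as normalised CPM per kilobase of gene model on a log axis, with BARD1 siRNA libraries in red to the left of Control siRNA libraries in blue; black marks are the mean and SD of 3 libraries. ITGB1 and ITGA3 stand at 147 or above in all 6 libraries, and ITGB8 and ITGB3 are the lowest in Control siRNA cells.

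Levels of different genes were set against each other per kilobase of gene model. The order depends on this length. In plain CPM with BARD1 siRNA, ITGA3 at 2085 was above ITGB1 at 1560. In plain CPM with Control siRNA, ITGA3 at 1517 was below ITGB1 at 1650. With BARD1 siRNA, ITGB1 was highest at 260 ± 7.41 CPM per kb and ITGA3 second at 213 ± 0.684, followed by ITGA6 at 47.4 ± 0.443 (SD, n = 3). ITGAV at 29.2 ± 1.34, ITGA5 at 27.6 ± 0.756 and ITGB5 at 27.5 ± 1.54 CPM per kb followed, and the libraries of these 3 neighbours overlapped. With Control siRNA, the first 3 places were held by ITGB1 at 274 ± 10.9, ITGA3 at 155 ± 6.75 and ITGA6 at 39.3 ± 1.97 CPM per kb. ITGB5 at 29.0 ± 1.16, ITGAV at 24.5 ± 0.464, ITGB4 at 14.9 ± 1.23 and ITGA5 at 9.90 ± 0.333 came next. Thus ITGA5 stood above ITGB4 in BARD1 siRNA cells, where ITGB4 had 8.74 ± 0.427 CPM per kb, and below it in Control siRNA cells. The last 3 places were ITGA2 at 3.79 ± 0.554, ITGB3 at 2.10 ± 0.360 and ITGB8 at 0.965 ± 0.0493 with BARD1 siRNA, against ITGA2 at 2.17 ± 0.0399, ITGB8 at 1.87 ± 0.120 and ITGB3 at 1.10 ± 0.177 with Control siRNA. ITGB3 and ITGB8 changed places per kb, and the libraries of the 2 genes did not overlap in either group. In plain CPM they did not change places. ITGB8 was above ITGB3 with BARD1 siRNA (14.6 against 9.24 CPM) and with Control siRNA (28.3 against 4.82 CPM).

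The alpha pool was made up differently in the 2 groups, when each subunit's counts per length were taken as a share of the 5 alpha subunits. ITGA5 made up 8.41%, 8.79% and 8.59% of the pool with BARD1 siRNA, against 4.35%, 4.26% and 4.28% with Control siRNA. ITGA3 made up most of it in both groups, at 66.3 ± 0.527% with BARD1 siRNA and 67.1 ± 1.36% with Control siRNA (SD, n = 3 each), and its groups overlapped. ITGA6 held 14.8 ± 0.182% with BARD1 siRNA and 17.0 ± 1.06% with Control siRNA, and ITGAV held 9.11 ± 0.361% with BARD1 siRNA and 10.6 ± 0.264% with Control siRNA. So the shares of ITGA6 and ITGAV were smaller in every BARD1 siRNA library although their own levels were higher. ITGA2 was at 1.18 ± 0.166% with BARD1 siRNA and 0.940 ± 0.0401% with Control siRNA. Its difference of 0.24 percentage points was 0.15 without BARD1 siRNA replicate 2.

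In the beta pool ITGB1 held 86.9 ± 0.338% with BARD1 siRNA and 85.4 ± 0.984% with Control siRNA. ITGB4 held 2.92 ± 0.0770% with BARD1 siRNA and 4.64 ± 0.498% with Control siRNA. ITGB8 held 0.323 ± 0.0143% with BARD1 siRNA and 0.582 ± 0.0205% with Control siRNA. ITGB3 was at 0.702 ± 0.101% with BARD1 siRNA and 0.341 ± 0.0467% with Control siRNA. ITGB5 was at 9.20 ± 0.233% with BARD1 siRNA and 9.03 ± 0.534% with Control siRNA, with overlap. Shares within a pool depend on one another, since they add up to the whole pool. Over the 10 shares, the groups did not overlap for 8, and levels of single genes did not overlap for 50.4% of all tested genes. The exact two-sided permutation test gave p = 0.1 for these 8, the smallest p that 3 against 3 libraries allow, and 0.125 after adjustment over the 10 shares.

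**Figure D3:**
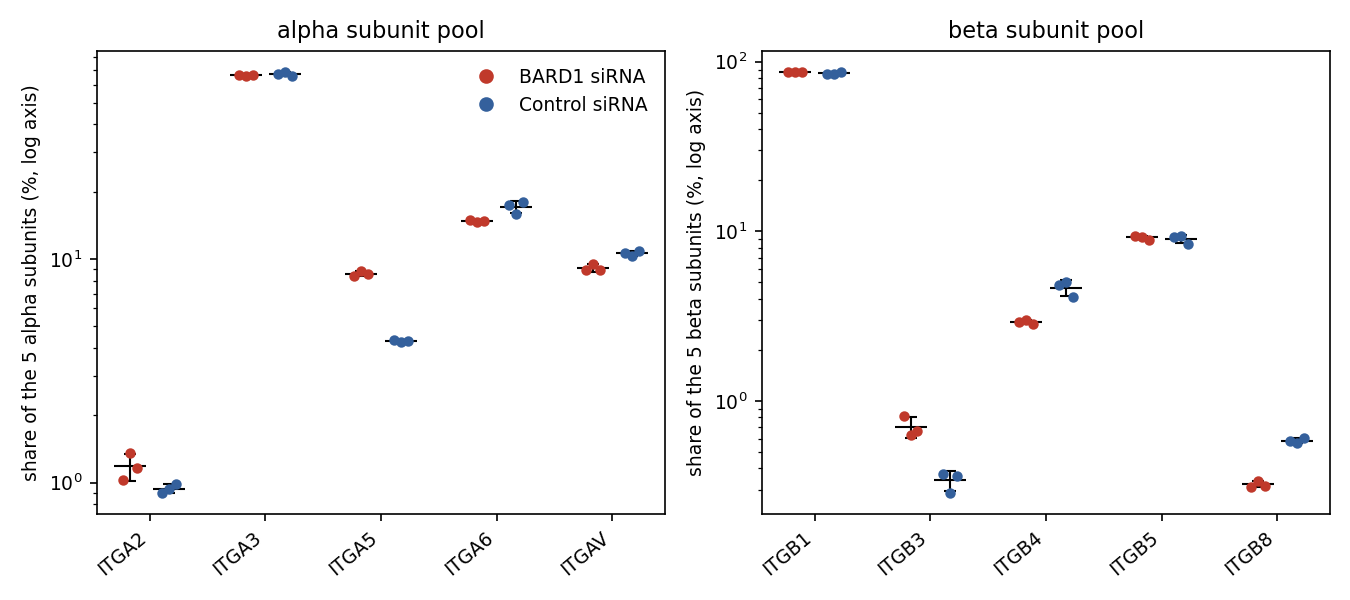
Share of each subunit in the summed alpha (left) or beta (right) mRNA per length, in percent on a log axis, per library, with BARD1 siRNA left of Control siRNA and black marks for the mean and SD of 3 libraries. ITGA5 lies at 8.41% to 8.79% with BARD1 siRNA and at 4.26% to 4.35% with Control siRNA, while ITGA3 overlaps.

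Since an alpha and a beta chain leave the endoplasmic reticulum as a pair, the ratio of alpha to beta mRNA was computed for the 9 pairs among the members. A ratio within a library does not depend on how libraries were scaled. The ITGA5 to ITGB1 ratio per length was 0.101, 0.110 and 0.109 with BARD1 siRNA, against 0.0373, 0.0377 and 0.0335 with Control siRNA, a 2.94-fold increase. For ITGA3 to ITGB1 it was 0.820 ± 0.0213 with BARD1 siRNA and 0.565 ± 0.0463 with Control siRNA (SD, n = 3 each). The summed alpha mRNA was 1.24 ± 0.0336 times that of ITGB1 with BARD1 siRNA and 0.841 ± 0.0534 times with Control siRNA. That ratio was thus above 1 in every BARD1 siRNA library and below 1 in every Control siRNA library on this length scale. In plain CPM, by contrast, the summed alpha level exceeded that of ITGB1 in both groups. It was 2859 to 2891 CPM with BARD1 siRNA, against 1517 to 1606 CPM for ITGB1. With Control siRNA it was 1993 to 2105 CPM, against 1585 to 1716 CPM for ITGB1.

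Pairs outside ITGB1 differed more between themselves. ITGA6 mRNA was 5.43 ± 0.250 times ITGB4 mRNA with BARD1 siRNA and 2.66 ± 0.306 times with Control siRNA. ITGAV was 30.3 ± 0.621 times ITGB8 with BARD1 siRNA and 13.1 ± 0.831 times with Control siRNA. Its ratio to ITGB3 went the other way, at 14.2 ± 2.58 with BARD1 siRNA and 22.7 ± 3.75 with Control siRNA, the only one of the 9 pairs with a lower ratio in BARD1 siRNA cells. For each of the 9 pairs the groups did not overlap, and the exact permutation p was 0.1, the smallest possible, also after adjustment over 11 ratios. Single genes separated the groups in 50.4% of all tested genes, and no such share was computed for ratios of other genes. The pairs share chains, so their ratios are not independent of one another or of the changes of the members. These ratios concern mRNA and say nothing of protein at the cell surface.

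**Figure D4:**
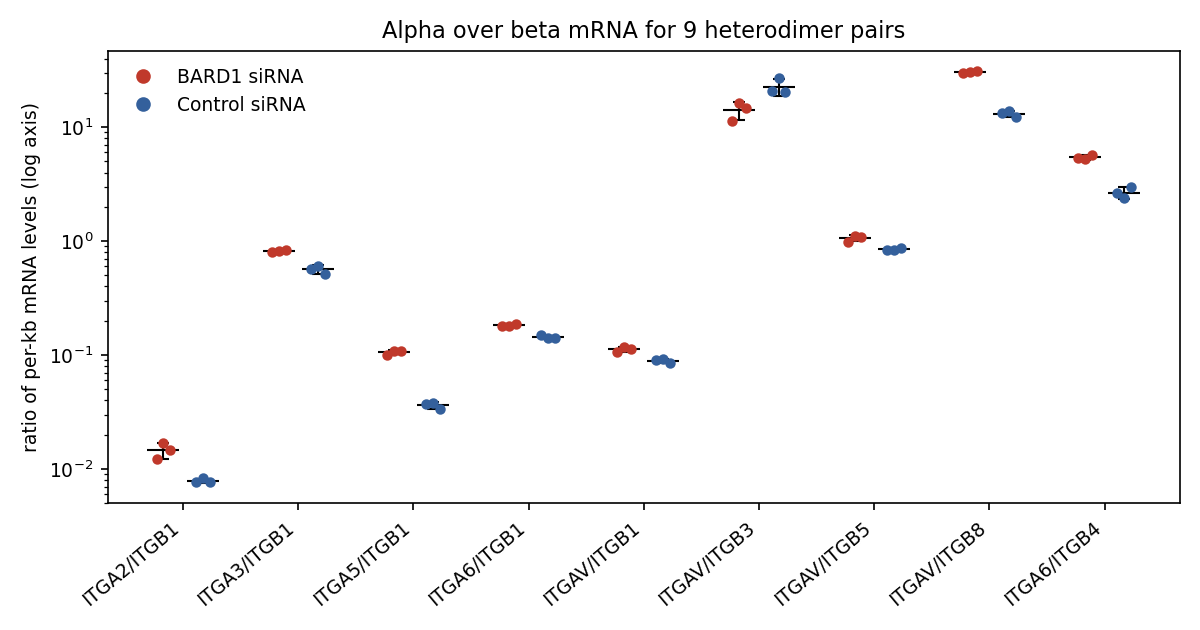
Ratio of alpha to beta mRNA per length in each library for the 9 heterodimer pairs, on a log axis, with BARD1 siRNA left of Control siRNA and black marks for the mean and SD of 3 libraries. The ratio is higher in all BARD1 siRNA libraries for 8 pairs and lower for ITGAV/ITGB3.

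Of the other 16 integrin subunits, the filter was passed by 9, of which 1 was higher and 1 lower, with a median log2 fold change of −0.25. Of all tested genes, 22.0% were higher and 20.3% lower. ITGAX, the alpha chain of a leukocyte integrin, had 1.35, 1.89 and 1.43 CPM with BARD1 siRNA, against 0.568, 0.586 and 0.332 CPM with Control siRNA (log2 fold change 1.64, SE 0.49, edgeR adjusted p = 0.00510). It rests on 79 counts with BARD1 siRNA and 26 with Control siRNA. It passed the low-count filter through the BARD1 siRNA libraries, where it is high, with 22, 32 and 25 counts. The Control siRNA libraries had 10, 10 and 6 counts. ITGAE, the E-cadherin-binding alpha chain, was at 15.3 ± 0.834 CPM with BARD1 siRNA and 21.1 ± 1.87 CPM with Control siRNA (log2 fold change −0.47, edgeR adjusted p = 0.000843). It shares 427 exon bases with HASPIN on the other strand, whose mean count was about as high, so its value is uncertain. The epithelial chain ITGB6 was at 12.1 ± 2.03 CPM with BARD1 siRNA and 13.6 ± 3.10 CPM with Control siRNA, and did not pass (edgeR adjusted p = 0.409). Log2 fold changes of the others were −0.25 for ITGA1, −0.62 for ITGA2B, −0.39 for ITGA4, 0.11 for ITGA7, −0.19 for ITGA10 and −0.34 for ITGB2, and none passed. Without BARD1 siRNA replicate 1, and likewise without BARD1 siRNA replicate 3, 2 of these subunits were called lower. Only ITGA7 and ITGAX among the other tested alpha chains had positive log2 fold changes, and only ITGAX and ITGAE passed. The 5 alpha members were chosen with earlier results of these data known, so no difference from them is drawn.

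Among ligands of the laminin receptors, the laminin chain LAMB3 rose most. Of 9 tested laminin chains 5 were higher and 0 lower, with a median log2 fold change of 0.22. The shares over all tested genes were 22.0% higher and 20.3% lower. LAMB3 was at 2149, 2087 and 2013 CPM with BARD1 siRNA, against 317, 303 and 292 CPM with Control siRNA (log2 fold change 2.77, edgeR adjusted p = 9.53e-44). Log2 increases were 0.86 for LAMA3 and 0.22 for LAMA5, a chain of basement membrane laminin. Of the 4 tested hemidesmosome genes beside ITGB4, COL17A1 and PLEC, which encode a transmembrane collagen and the linker plectin, had log2 increases of 1.13 and 0.69, and none was called lower. KRT14 had a log2 fold change of −0.66 and did not pass (edgeR adjusted p = 0.297), at 35 counts in all with BARD1 siRNA and 58 with Control siRNA. The hemidesmosome chain ITGB4 thus fell while COL17A1 and PLEC rose.

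Ligands of the RGD receptors went both ways, with 5 higher and 4 lower of 12 tested (median −0.02), beside 22.0% higher and 20.3% lower of all tested genes. Fibronectin (FN1), the ligand of the ITGA5 receptor, was at 405, 396 and 381 CPM with BARD1 siRNA, against 201, 181 and 205 CPM with Control siRNA (log2 fold change 1.01, edgeR adjusted p = 5.7e-23). Tenascin-C (TNC) and osteopontin (SPP1) rose by 1.83 and 0.70 on the log2 scale. Thrombospondin-1 (THBS1) had a log2 fold change of −1.79. Of 10 collagen chains 4 were higher and 2 lower (median 0.26), with COL6A2 at 0.54, COL4A1 at 0.49, COL5A2 at −0.70 and COL3A1 at −0.83. Around latent TGF-beta, the substrate of the ITGB8 receptor, TGFB1 was called higher at 0.36 and its binding protein LTBP1 lower at −0.32, out of 4 tested (median −0.41). The lower calls there were 2 without Control siRNA replicate 3, with upper-quartile scaling, with library size alone, and with at least 1 CPM in 3 libraries. TGFB1 shares exon bases with the more abundant HNRNPUL1 on the other strand.

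Cytoplasmic partners of the integrins changed mostly by less than ITGA5. Of 23 activators and actin linkers 8 were higher and 7 lower (median 0.08), beside 22.0% higher and 20.3% lower of all tested genes. The talin gene TLN1, whose product switches integrins on, had 898 ± 8.80 CPM with BARD1 siRNA and 892 ± 31.4 CPM with Control siRNA and did not pass (edgeR adjusted p = 0.893), whereas TLN2 and KANK2 fell by 0.85 and 0.92 and paxillin (PXN) rose by 0.44 on the log2 scale. ILK, a kindlin partner, was called higher at 1.51, but from 83 counts with BARD1 siRNA and 30 with Control siRNA, and with 2374 exon bases shared with the more abundant TAF10 on the other strand. ILK also passed the low-count filter through the BARD1 siRNA libraries, with 32, 28 and 23 counts, against 7, 17 and 6 with Control siRNA. Of 14 adhesion signalling genes 9 were higher and 2 lower (median 0.17), among them the scaffold NEDD9 at 2.60, focal adhesion kinase (PTK2) at 0.59, ASAP1 at 0.51 and PTK2B at −1.06. The 2 lower calls became 0 without BARD1 siRNA replicate 1 and 1 without any other single library, and the 9 higher calls became 5 with upper-quartile scaling or library size alone.

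Of 9 inhibitors and trafficking genes 4 were higher and 3 lower (median −0.08), with the endocytic adaptor NUMB at 0.46, SHARPIN at 0.20, FLNA at −0.20 and RAB11FIP1 at −0.24. The 4 higher calls became 1 without BARD1 siRNA replicate 1, and 2 without BARD1 siRNA replicate 2, BARD1 siRNA replicate 3 or Control siRNA replicate 3. Membrane partners had 8 higher and 2 lower of 13 (median 0.29). The shares over all tested genes, for both lists, were 22.0% higher and 20.3% lower. The urokinase receptor PLAUR, which associates with integrins, rose by 2.09, the tetraspanin CD82 by 1.76, the CD98 heavy chain SLC3A2 by 1.39 and the syndecan SDC4, a fibronectin co-receptor, by 1.00.

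**Figure D5:**
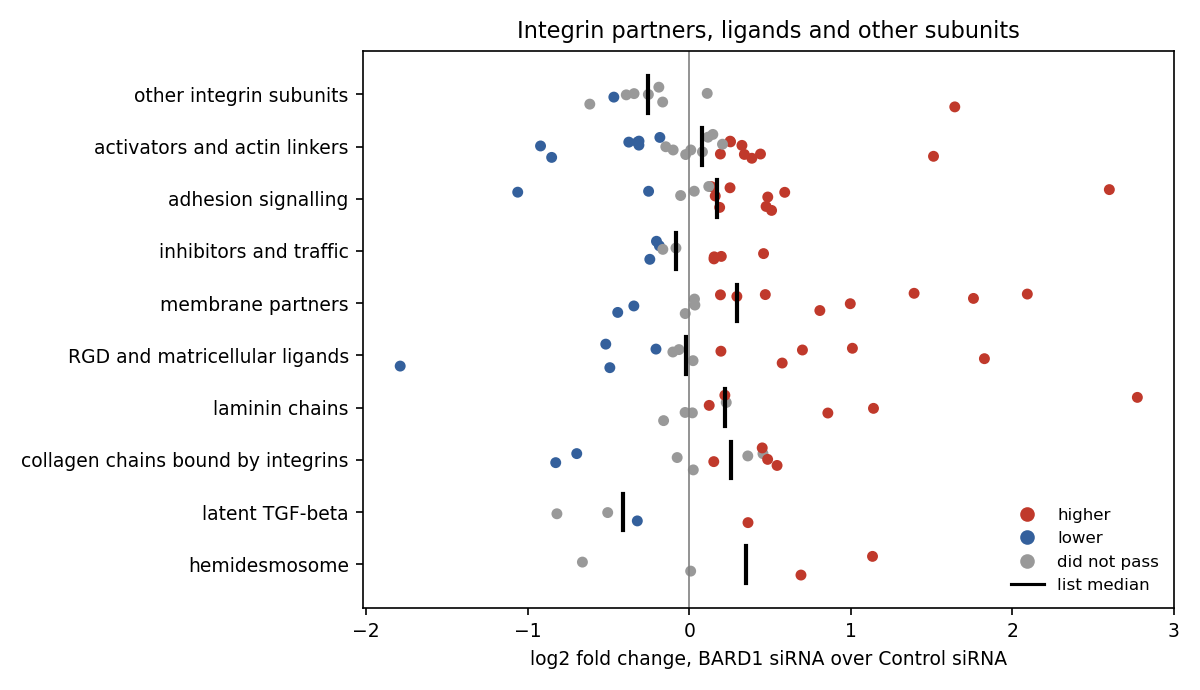
Log2 fold change, BARD1 siRNA over Control siRNA, of every tested gene in each list of integrin partners and ligands, one point per gene, with the list median as a black line. LAMB3 at 2.77 and NEDD9 at 2.60 are farthest to the right and THBS1 at −1.79 farthest to the left.

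Genes whose profile over the 6 libraries was closest to that of ITGA5 were YOD1, MAFG, PMAIP1, MEF2D and TNIP1. Closeness was the root mean square distance of centred log2 CPM, which ran from 0.0297 to 0.0639 for these 5. For ITGB8 the nearest were AKAP5, RHOBTB3, NCAPD2, KIF15 and ZNF69, at 0.0278 to 0.0722. With 6 libraries in 2 groups, the measure mainly finds genes with the same size of change.

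BARD1 counts were 96, 110 and 169 with BARD1 siRNA, against 805, 644 and 887 with Control siRNA (log2 fold change −2.58, SE 0.14, edgeR adjusted p = 1.2e-15). Library totals were 16661374 to 17743404 counts with BARD1 siRNA and 16621108 to 17704645 counts with Control siRNA, and the 10 integrins took 0.454% to 0.464% of counts with BARD1 siRNA and 0.409% to 0.415% with Control siRNA. Of 12 epithelial and ovarian carcinoma markers 10 were tested, and their summed level was 4411 to 4530 CPM with BARD1 siRNA and 4307 to 4703 CPM with Control siRNA. Its members went both ways, with 3 called higher and 4 lower, beside 22.0% higher and 20.3% lower of all tested genes. Log2 fold changes were 1.80 for CLDN4, 0.75 for PAX8 and 0.40 for KRT18, and −0.98 for KRT7, −0.60 for KRT19, −0.24 for EPCAM and −0.14 for ERBB2. Their part in the integrin changes was not tested. MUC16 and WT1 were near 0, with 13 and 20 counts over the BARD1 siRNA libraries and 12 and 25 over the Control siRNA libraries. The 6 endothelial markers summed to 0.860 to 2.40 CPM with BARD1 siRNA and 0.665 to 0.997 CPM with Control siRNA. Of 6 haematopoietic markers 4, PTPRC, CD3E, FCGR3A and GP9, had 0 counts in all libraries. The list summed to 0.229 to 0.307 CPM with BARD1 siRNA and 0.609 to 1.25 CPM with Control siRNA. At these low levels 1 of its markers was tested, and it was called lower with a log2 fold change of −2.12. The 6 fibroblast markers summed to 9.94 to 14.6 CPM with BARD1 siRNA and 20.9 to 22.1 CPM with Control siRNA, most of it COL3A1. Of the 2 tested, COL3A1 was called lower at −0.83 and the other did not pass, at −0.10. PDGFRB had 0 counts with BARD1 siRNA and 2 with Control siRNA.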

How the data were processed

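RNA from 6 cultures was sequenced after poly(A) capture, per the labels' protocols. The authors deposited raw read counts per gene, whole numbers without normalization, and the gene length. HISAT2 and CASAVA were used with GRCh38 (hg38), per the submitters' processing notes. Their versions, how reads were assigned to genes, and whether strand was used are not stated there. Counts were tested with edgeR 4.0.16 in R 4.3.3 (robust glmQLFit and glmQLFTest, TMM factors, group only). filterByExpr (minimum count 10, minimum total 15) kept 15271 genes of 29419 with any count. The SE of a log2 fold change is its size over the square root of F. CPM uses TMM-scaled library sizes. The deposited length equals the union of exons in GENCODE release 29 for all 10 members. The script was tested on simulated data.

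The titles number biological replicates, but nothing says that they were transfected separately, so p-values reflect only how these cultures vary, which may be technical. No replicate pair agreed within sampling noise (chi-square per degree of freedom 3.29 to 7.71). The members and lists were chosen with earlier results of these data known. Genes named are all 10 members, BARD1, every tested other subunit, up to 4 called genes per list with the largest change, and the 5 nearest profiles of the members with the largest and smallest fold change. TLN1, HASPIN, TAF10, HNRNPUL1, GALK1, KRT14, MUC16, WT1, the called epithelial markers beyond the rule and the zero-count markers were named after their values were seen, and the heterodimer ratios were added then. Alternatives were RLE, upper-quartile and no scaling, DESeq2 1.42.0, limma-voom 3.58.1, other filters, protein-coding genes only, a replicate block and leaving out each library. Results for some genes that the naming rule takes are not reported here.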

Additional observations from a re-analysis of the deposited data

How the results depend on the processing

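The 8 called subunits kept their direction and their call under every alternative run, with log2 fold changes of 1.41 to 1.50 for ITGA5, 0.78 to 1.01 for ITGB3 and −1.02 to −0.91 for ITGB8. Upper-quartile scaling and library size alone each gave 4 lower subunits, 5 higher adhesion signalling genes, 1 higher gene among inhibitors and traffic and 2 lower among latent TGF-beta genes. Over all 15271 tested genes, upper-quartile scaling gave 2815 higher and 3975 lower, and library size alone gave 2853 higher and 3906 lower. The main fit gave 3355 higher and 3107 lower. With no filter on low counts 2 inhibitor and traffic genes were higher, beside 3233 of all 29419 genes tested then. With at least 1 CPM in 3 libraries 2 latent TGF-beta genes were lower, beside 3165 of all 14032 genes tested then. The median log2 fold change over the genes of the main fit was −0.07 with upper-quartile scaling and with library size alone, against −0.01 in the main fit. The cause was not tested. Leaving out one library gave 1 to 2 lower other subunits, 0 to 1 lower adhesion signalling genes, 1 to 4 higher inhibitor and traffic genes and 1 to 2 lower latent TGF-beta genes, with 2 in that last list without Control siRNA replicate 3. Over all tested genes, leaving out one library gave 3004 to 3362 higher and 2651 to 3075 lower.

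The replicate block gave 3390 higher and 3121 lower genes against 3355 and 3107 without it, and changed no call of a member. Same-numbered libraries did not deviate together (correlations −0.02 to −0.01), no library matched its own number best, and they share only a number.

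Shares depend on the length used, as do the order of levels between genes and the size of each ratio. Differences between the groups in percentage points, BARD1 siRNA minus Control siRNA, were 3.64 for ITGA5 and −0.63 for ITGB8 without division by length, against 4.30 and −0.26. With the longest protein-coding transcript, a length chosen after seeing the data, they were −1.06 for ITGAV, 0.25 for ITGB3 and −0.29 for ITGB8, and ITGA3 made up 75.3% of the alpha pool with BARD1 siRNA and 76.9% with Control siRNA. Leaving out one library gave 0.15 to 0.32 for ITGA2, against 0.24. No share difference that separated the groups changed sign. ITGB3, with 67 counts in its lowest library, is the member limited most by depth.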
